A study of Mus musculus with 6 samples.

Results

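Cells detect double-stranded RNA as a sign of infection or of RNA that has escaped decay, and answer with interferon. The 36 genes described here carry out that detection and that answer, from the sensors through the interferon receptor and its transcription factors to the genes that interferon switches on. They were chosen by name for their place in this pathway, by a rule that uses no measured value but was drawn up with earlier results of these libraries known, and all 36 were found among the 54232 genes of the count table. Each of them passed the filter on low counts that left 20327 genes for testing. The filter asks for enough counts in any 3 libraries, and 31 of the 36 had at least 10 counts in every library, so no abundant member entered through a single group.

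The libraries came from total RNA of whole testes of mice on the B6D2F1 background at postnatal day 12, with 3 libraries labelled *Dis3l2* KO and 3 labelled *Dis3l2* WT. In the study the mutants are *Stra8-Cre*; *Dis3l2* F/- mice, with 1 *Dis3l2* allele floxed and the other deleted, and their littermates are the controls, given only as WT in the labels. DIS3L2 is a cytoplasmic exoribonuclease that degrades uridylated RNA. *Stra8-Cre* acts in part of the spermatogonia and in the germ cells that follow them, so the somatic cells of a mutant testis, which make up much of the tissue at this age, keep their floxed allele. Totals ran from 33325483 to 44956193 counts per library.

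The gene named in the labels did not fall in the counts. *Dis3l2* had 31.6, 25.4 and 27.5 CPM (counts scaled to the size of a library) in the KO-labelled testes, against 25.8, 23.5 and 23.0 CPM in the WT testes, a log2 fold change of 0.22 (95% interval -0.01 to 0.46, adjusted p = 0.133, edgeR quasi-likelihood test). This value turned to -0.14 when libraries were scaled to somatic cell markers. These counts are totals over all exons of a gene, and reads over single exons were not examined. Why the total of *Dis3l2* did not fall was not tested. By in situ hybridization, RT-qPCR and immunoblot the study reports less *Dis3l2* RNA and protein in mutant testes of the same age. Those checks were not analysed here. The homolog *Dis3*, the gene that the series' design text names as the one deleted, averaged 63.8 ± 4.55 CPM in the KO-labelled and 139 ± 7.93 CPM in the WT testes (SD, n = 3 each), a log2 fold change of -1.13 (adjusted p = 3.8e-08, edgeR). Among all genes tested 16.7% fell, and markers of differentiating and meiotic germ cells had a median log2 fold change of -1.82. The cause of the *Dis3* fall was not tested. The mutant group is therefore called KO-labelled here, and each direction below is relative to those labels.

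RIG-I (encoded by *Ddx58*) and MDA5 (*Ifih1*) bind double-stranded RNA in the cytoplasm and signal through MAVS on the mitochondrial membrane, while TLR3 binds it in endosomes. Both routes activate IRF3 and NF-κB and so the genes of type I interferon. Interferon binds IFNAR1 and IFNAR2, and a complex that holds STAT2 and IRF9 then binds the interferon-stimulated response element (ISRE) at genes such as *Isg15*, *Ifit1* and *Oas1a*. The gamma-activated sequence (GAS) is the element best known from the response to interferon gamma. In the testis, Sertoli cells, Leydig cells and macrophages are known to carry sensors of this kind.

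The sequences that make interferon-stimulated genes readable as a group lie at their starts. RefSeq windows on GRCm38.p6, from 250 bases before to 50 bases after each annotated start, were present for 28 of the 36 members. The ISRE was searched as GAAANNGAAA on both strands, and overlapping matches were counted separately. It occurred in the windows of 12 of these 28 members (42.9%, exact 95% binomial interval 24.5 to 62.8%), compared with 3.99% of 27025 genes. The GAS was searched as TTCNNNGAA, which reads the same on both strands, and occurred in 10 of the 28 members (35.7%), compared with 9.55% of genes. Members were chosen for their place in this pathway, so these shares describe them and test nothing, and a match is not a bound site. The windows below are shown because they hold 2 or 3 ISRE matches, and their genes are classic readouts of an interferon response. Each is on the gene's own strand, 5′ to 3′, with the matches in capitals. The windows are *Isg15* at chr4:156200846-156200925 (minus strand), *Ifit1* at chr19:34640760-34640839 (plus), *Ifit3* at chr19:34583355-34583434 (plus) and *Oas1a* at chr5:120907526-120907605 (minus).
Isg15: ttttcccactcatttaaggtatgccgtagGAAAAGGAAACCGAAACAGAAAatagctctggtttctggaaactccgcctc
Ifit1: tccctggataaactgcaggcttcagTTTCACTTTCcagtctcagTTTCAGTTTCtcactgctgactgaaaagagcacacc
Ifit3: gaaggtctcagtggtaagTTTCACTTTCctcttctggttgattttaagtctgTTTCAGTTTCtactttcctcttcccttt
Oas1a: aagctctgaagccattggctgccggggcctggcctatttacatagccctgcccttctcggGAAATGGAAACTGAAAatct

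*Isg15* has 3 matches that run into each other, whereas the 2 of *Ifit1* and the 2 of *Ifit3* stand apart and read TTTC...TTTC because the element lies on the other strand. Of the 8 members that rose in the KO-labelled testes (below) and had a window, 2 held an ISRE and 4 held a GAS. Of the 20 other members with a window, 10 held an ISRE and 6 a GAS. The ISRE matches of the risen members are single and lie just past the start, in *Ddx58* at chr4:40239804-40239833 (minus) and in *Eif2ak2* at chr17:78882535-78882564 (minus). The GAS of *Irf1*, at chr11:53769889-53769968 (plus), is shown with them.
Ddx58: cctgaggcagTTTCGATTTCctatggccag
Eif2ak2: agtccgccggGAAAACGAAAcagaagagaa
Irf1: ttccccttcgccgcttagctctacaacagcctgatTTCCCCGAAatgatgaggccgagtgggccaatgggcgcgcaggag

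**Figure D1:**
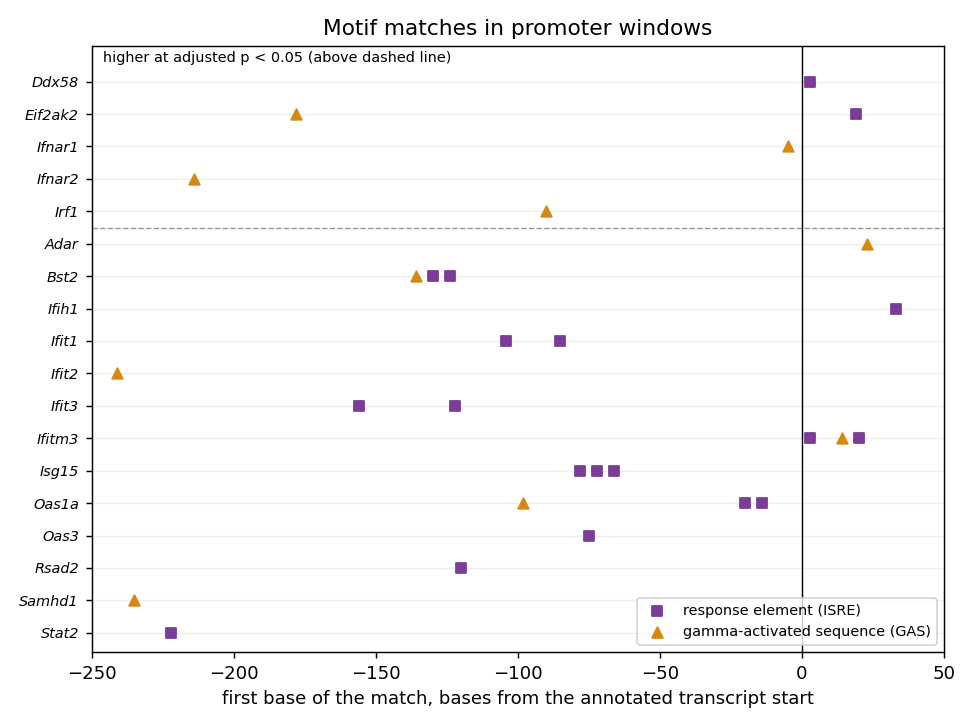
Positions of ISRE matches (squares) and GAS matches (triangles) in the promoter windows of the 18 members that hold at least 1, with distance from the annotated start in bases on the x axis and genes on the y axis. Members that rose in the KO-labelled testes stand above the dashed line with 1 match of a motif at most, and below it *Isg15* holds 3 neighbouring ISRE matches.

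In the comparison of KO-labelled with WT testes, 9 of the 36 members rose and 0 fell at an adjusted p under 0.05 (edgeR quasi-likelihood test, Benjamini-Hochberg over all genes tested). Among all genes tested, 16.4% rose and 16.7% fell. The members that rose were the sensors *Tlr3* and *Ddx58*, the adaptor *Mavs*, the ubiquitin ligase *Trim25*, the kinase *Eif2ak2*, both chains of the interferon receptor, the transcription factor *Irf1* and the interferon-stimulated gene *Ifi27*. All 9 were among the 19 members with a mean of at least 10 CPM, and of the genes at that level 27.2% rose and 20.4% fell. Of the 17 members below 10 CPM, 0 rose, where few of all genes tested at that level did (565 of 10158). At an unadjusted p under 0.05 the count in both directions was 11 of 36 members, against 8659 of the 20327 genes tested, a larger share. The members' median log2 fold change was 0.17, with 25 positive and 11 negative, beside a median of -0.02 over all genes tested. All KO-labelled testes lay above all WT testes for 13 members, where 21.7% of all genes did so, and below them for 2 members, *Ifitm3* and *Irf9*, where 23.8% did so.

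These calls rest on scaling the libraries by the trimmed mean of M-values (TMM), which takes most genes as level. Scaling to the markers of somatic cells instead shifted the median of all genes to -0.38. The members' median became -0.17, which was 0.21 above that of all genes, compared with 0.20 above it under TMM. No member then rose, and 6 fell. Of the 9 members that rose under TMM, 6 kept a positive sign, between 0.05 (*Trim25*) and 0.24 (*Tlr3*), while *Ifnar1*, *Irf1* and *Ifi27* turned to -0.11, -0.040 and -0.036. The 9 rises are thus relative to TMM scaling, and none of the 9 was called relative to somatic markers.

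**Figure D2:**
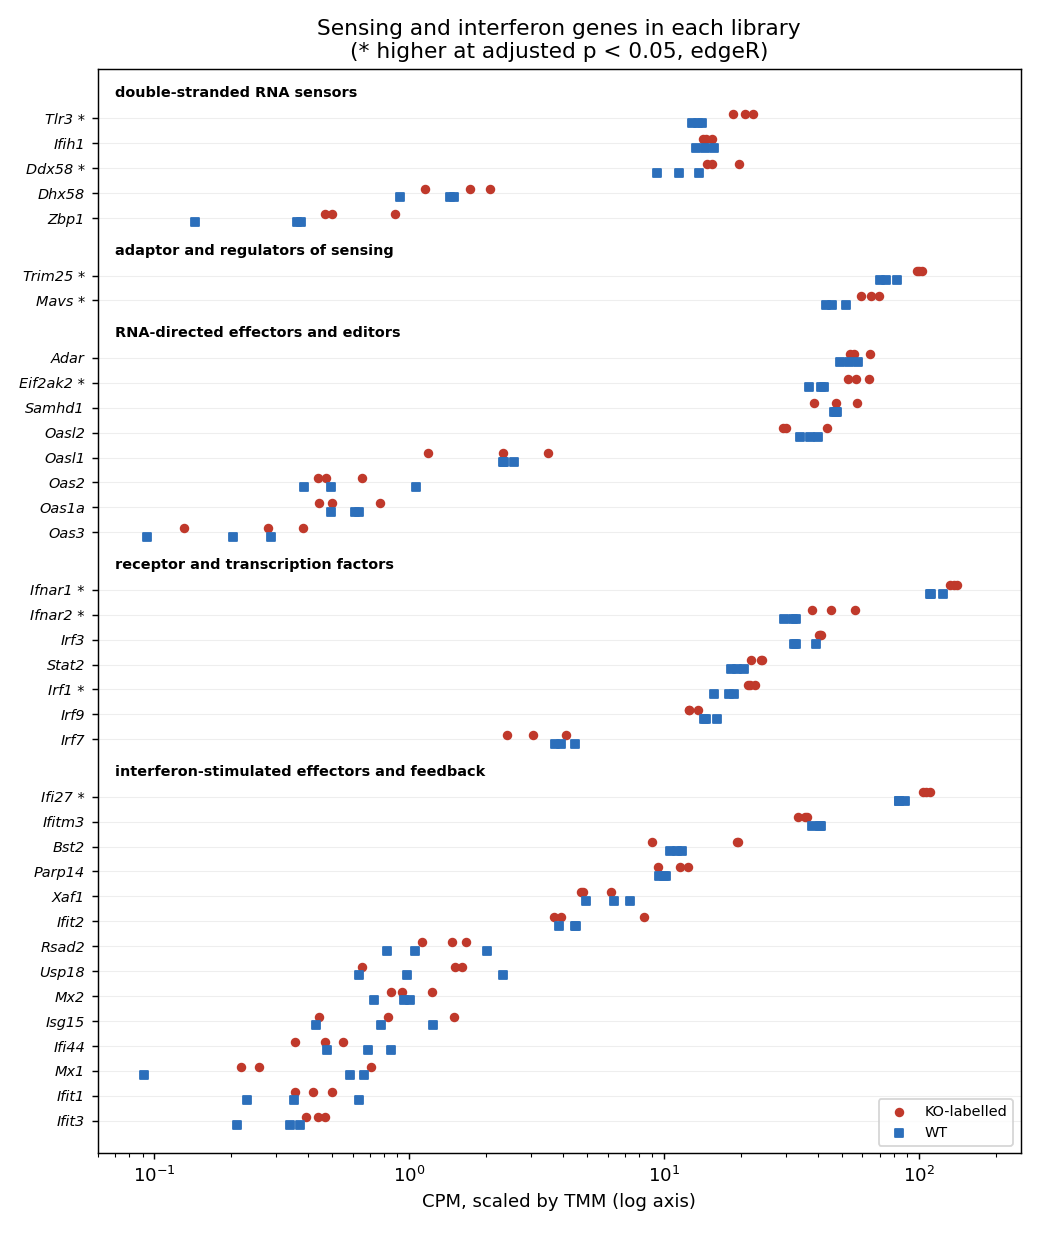
CPM of each of the 36 members in each library on a log axis, with the 3 KO-labelled testes above the 3 WT testes for every gene and the genes grouped by role. The members span from under 1 CPM (*Oas3*, *Mx1*, *Ifit1*) to over 100 CPM (*Ifnar1*, *Ifi27*), and the 9 that rose all lie in the upper part of this range.

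The sensors of double-stranded RNA split into 2 that rose and 3 that did not pass the test. *Tlr3*, the endosomal sensor (ENSMUSG00000031639.12, chromosome 8, 45395665 to 45411080 in GRCm38), was measured at 20.7, 22.3 and 18.7 CPM in the KO-labelled testes, against 12.9, 14.1 and 13.6 CPM in the WT testes. The groups did not overlap, and the log2 fold change of 0.61 ± 0.12 (standard error, SE, with adjusted p = 0.000865, edgeR) was the largest among the members that rose. *Ddx58* (ENSMUSG00000040296.15, chromosome 4, 40203773 to 40239828) had 19.6, 14.7 and 15.4 CPM in the KO-labelled testes, against 13.8, 11.5 and 9.36 CPM in the WT testes. The lowest KO-labelled library lay just above the highest WT library. Its log2 fold change was 0.52 ± 0.16 (SE, adjusted p = 0.0171, edgeR), and the call was lost without KO replicate 1 (adjusted p = 0.0801) or without WT replicate 3 (adjusted p = 0.0768).

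The other 3 sensors did not pass the test. *Ifih1*, which encodes MDA5 and prefers long double-stranded RNA, had 15.4, 14.6 and 14.2 CPM in the KO-labelled testes, against 14.5, 15.7 and 13.3 CPM in the WT testes. The groups overlapped fully, and the 95% interval of the log2 fold change ran from -0.24 to 0.29. *Dhx58*, which encodes LGP2, a relative of RIG-I and MDA5 that modulates both, had 1.16, 2.08 and 1.73 CPM in the KO-labelled testes, against 1.44, 0.918 and 1.499 CPM in the WT testes. *Zbp1*, a sensor of nucleic acids in the Z form, had 0.880, 0.467 and 0.498 CPM in the KO-labelled testes, against 0.144, 0.376 and 0.363 CPM in the WT testes. Every KO-labelled library of *Zbp1* lay above every WT library, but at these counts the 95% interval of its log2 fold change of 1.03 ran from -0.20 to 2.26 and it did not pass the test (adjusted p = 0.192, edgeR). For *Dhx58* the interval ran from -0.34 to 1.08.

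The adaptor of the cytoplasmic sensors and the ligase that activates RIG-I both rose. *Mavs* (ENSMUSG00000037523.13, chromosome 2, 131234063 to 131248025) had 64.8, 59.1 and 69.9 CPM in the KO-labelled testes, against 45.7, 43.2 and 51.7 CPM in the WT testes. Its log2 fold change was 0.46 ± 0.10 (SE, adjusted p = 0.0012, edgeR), with no overlap between groups. *Trim25* (ENSMUSG00000000275.16, chromosome 11, 88999376 to 89020293), which adds ubiquitin to RIG-I, had 100.1, 98.4 and 102.8 CPM in the KO-labelled testes, against 74.3, 81.9 and 70.3 CPM in the WT testes. The KO-labelled testes lay close together, above all WT testes, at a log2 fold change of 0.41 ± 0.08 (SE, adjusted p = 0.00085, edgeR). The calls of *Tlr3*, *Mavs* and *Trim25* held in each fit that left out 1 library. Neither motif occurred in the promoter windows of these 3 genes.

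Of the 8 members listed as RNA-directed effectors and editors, 1 rose. *Eif2ak2* (ENSMUSG00000024079.4, chromosome 17, 78852564 to 78882573) encodes PKR, the kinase that stops translation by phosphorylating eIF2α when it binds double-stranded RNA. It had 56.8, 52.5 and 63.7 CPM in the KO-labelled testes, against 42.5, 41.2 and 37.0 CPM in the WT testes. The groups stood well apart, and its log2 fold change of 0.52 ± 0.10 (SE) had the smallest adjusted p of all members (0.000513, edgeR). *Adar*, whose product edits adenosine to inosine and so marks double-stranded RNA as the cell's own, had 55.7, 53.7 and 64.5 CPM in the KO-labelled testes, against 49.0, 53.3 and 57.7 CPM in the WT testes. The groups overlapped, with a 95% interval of -0.08 to 0.32 for the log2 fold change. *Samhd1*, which degrades deoxynucleotides, had 56.9, 47.1 and 38.6 CPM in the KO-labelled testes, against 46.5, 47.7 and 47.1 CPM in the WT testes. The KO-labelled testes of *Samhd1* spread to both sides of the narrow WT range.

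The oligoadenylate synthetases make the second messenger that activates RNase L, and they are strongly induced by interferon in most cells. *Oas1a* had 0.770, 0.444 and 0.498 CPM in the KO-labelled testes, against 0.634, 0.494 and 0.613 CPM in the WT testes. *Oas2* had 0.440, 0.654 and 0.471 CPM in the KO-labelled testes, against 1.07, 0.494 and 0.386 CPM in the WT testes. *Oas3* had 0.385, 0.280 and 0.131 CPM in the KO-labelled testes, against 0.288, 0.0941 and 0.204 CPM in the WT testes. These levels rest on 16 to 37 counts per library for *Oas1a* and *Oas2* and on 4 to 14 counts for *Oas3*, and the groups of all 3 genes overlapped. Of the related *Oasl1*, the KO-labelled testes had 1.18, 2.33 and 3.51 CPM and the WT testes 2.36, 2.59 and 2.34 CPM. *Oasl2* stood above the others also per length, at 5.37 RPKM in the KO-labelled and 5.83 RPKM in the WT testes on average, with 29.2, 30.1 and 43.4 CPM in the KO-labelled testes and 37.2, 40.2 and 34.1 CPM in the WT testes. For *Oasl2*, KO replicates 1 and 2 lay below all WT testes and replicate 3 above them, and without KO replicate 3 it would count as lower (log2 fold change -0.32, adjusted p = 0.0354, edgeR).

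Both chains of the type I interferon receptor rose. *Ifnar1* (ENSMUSG00000022967.13, chromosome 16, 91485238 to 91507441) had 137.7, 131.7 and 140.4 CPM in the KO-labelled testes, against 111.5, 110.4 and 123.6 CPM in the WT testes. This was a small difference without overlap, at a log2 fold change of 0.25 ± 0.08 (SE, adjusted p = 0.0215, edgeR), and the call was lost without KO replicate 3 (adjusted p = 0.0522) or WT replicate 1 (adjusted p = 0.119). *Ifnar2* (ENSMUSG00000022971.18, chromosome 16, 91372783 to 91405589) had 56.3, 45.3 and 38.1 CPM in the KO-labelled testes, against 32.0, 33.01 and 29.6 CPM in the WT testes. All KO-labelled testes lay above the WT testes, with KO replicate 1 the highest, at a log2 fold change of 0.56 ± 0.12 (SE, adjusted p = 0.00193, edgeR). Of the exon bases of *Ifnar2*, 9.46% are shared with *Gm21970* on the same strand, and reads there were dropped by the counting. Such overlap was 2.28% for *Irf9* and 1.18% for *Parp14*.

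Among the transcription factors, *Irf1* rose, and *Stat2*, *Irf3*, *Irf7* and *Irf9* did not pass the test. *Irf1* (ENSMUSG00000018899.16, chromosome 11, 53770014 to 53778374), an early interferon target with a GAS in its promoter, had 22.7, 21.6 and 21.4 CPM in the KO-labelled testes, against 15.7, 18.8 and 17.99 CPM in the WT testes. The groups did not overlap, at a log2 fold change of 0.32 ± 0.11 (SE, adjusted p = 0.0377, edgeR). This call was the least firm of the 9, with adjusted p between 0.0606 and 0.190 without KO replicate 1, KO replicate 2, WT replicate 1 or WT replicate 3. *Stat2* had 24.1, 21.99 and 24.1 CPM in the KO-labelled testes, against 18.3, 19.3 and 20.6 CPM in the WT testes. *Irf3*, the factor that MAVS and TLR3 signalling activates, had 41.0, 41.3 and 40.5 CPM in the KO-labelled testes, against 32.3, 32.96 and 39.5 CPM in the WT testes. For both genes the groups did not overlap, and neither passed the test (adjusted p = 0.069 for *Stat2* and 0.0845 for *Irf3*, edgeR). DESeq2 called *Stat2* (adjusted p = 0.0481), and without WT replicate 3 *Irf3* was called by edgeR (adjusted p = 0.0219).

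*Irf7* and *Irf9* pointed the other way. *Irf7*, which interferon itself induces and which amplifies its production, had 2.42, 3.06 and 4.11 CPM in the KO-labelled testes, against 4.49, 3.95 and 3.75 CPM in the WT testes. *Irf9*, the subunit that lets STAT2 find the ISRE, had 12.6, 13.6 and 12.5 CPM in the KO-labelled testes, against 16.2, 14.4 and 14.7 CPM in the WT testes. The groups overlapped for *Irf7* and not for *Irf9*, and neither passed the test, at log2 fold changes of -0.34 (adjusted p = 0.276, edgeR) and -0.22 (adjusted p = 0.191, edgeR). The value of *Irf7* was -0.17 without KO replicate 1 and -0.55 without KO replicate 3, and with somatic marker scaling both genes were called lower, at -0.69 for *Irf7* and -0.58 for *Irf9*.

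Of the 14 members that interferon switches on or that damp its signal, 1 rose, where 16.4% of all genes tested did, and 10 had a mean below 10 CPM. Their median log2 fold change was 0.15. The gene that rose was *Ifi27* (ENSMUSG00000064215.13, chromosome 12, 103434211 to 103440239), which had 110.6, 106.2 and 103.2 CPM in the KO-labelled testes, against 88.1, 83.5 and 83.8 CPM in the WT testes. Every KO-labelled library was above every WT library, at a log2 fold change of 0.33 ± 0.08 (SE, adjusted p = 0.00312, edgeR). *Ifi27* was also the most abundant member per length, at 72.7 RPKM, which is CPM divided by gene length in kilobases, in the KO-labelled and 58.0 RPKM in the WT testes on average. *Ifitm3*, a membrane protein that blocks the entry of viruses, followed with 52.0 RPKM in the KO-labelled and 59.1 RPKM in the WT testes. In CPM, *Ifitm3* had 36.4, 33.6 and 35.8 in the KO-labelled testes, against 41.0, 41.2 and 38.1 in the WT testes. It lay lower in every KO-labelled library, with a log2 fold change of -0.18 that did not pass the test (adjusted p = 0.135, edgeR).

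The classic readouts of an interferon response were low in both groups, at 19 to 57 counts per library for *Isg15*, 8 to 28 for *Ifit1* and 9 to 20 for *Ifit3*. *Isg15*, the ubiquitin-like modifier whose window carries 3 ISRE matches, had 0.825, 0.444 and 1.49 CPM in the KO-labelled testes, against 1.24, 0.776 and 0.432 CPM in the WT testes. *Ifit1*, which binds RNA without a host cap, had 0.358, 0.420 and 0.498 CPM in the KO-labelled testes, against 0.230, 0.353 and 0.636 CPM in the WT testes. *Ifit3*, its partner, had 0.440, 0.467 and 0.393 CPM in the KO-labelled testes, against 0.374, 0.212 and 0.341 CPM in the WT testes. The groups overlapped for *Isg15* and *Ifit1*, while those of *Ifit3* did not. The 95% intervals of the log2 fold changes were wide, from -0.88 to 1.24 for *Isg15*, from -1.18 to 1.28 for *Ifit1* and from -0.75 to 1.73 for *Ifit3*. A change of more than 3-fold thus lay outside those of *Isg15* and *Ifit1*, and a smaller change could not be told from none at this depth. Over all 36 members, 16 had an interval wider than 1 on the log2 scale.

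*Mx1* and *Mx2* encode GTPases that block viruses. *Mx1* had 0.220, 0.257 and 0.707 CPM in the KO-labelled testes, against 0.662, 0.588 and 0.0909 CPM in the WT testes, and *Mx2* had 0.853, 0.934 and 1.23 CPM in the KO-labelled testes, against 0.950, 1.01 and 0.727 CPM in the WT testes. Both overlapped between groups. The antiviral enzyme viperin (*Rsad2*) had 1.68, 1.12 and 1.47 CPM in the KO-labelled testes, against 2.02, 1.06 and 0.818 CPM in the WT testes. *Usp18*, which removes ISG15 from proteins and damps the receptor, had 1.51, 1.61 and 0.655 CPM in the KO-labelled testes, against 0.979, 2.33 and 0.636 CPM in the WT testes. *Ifi44* had 0.358, 0.467 and 0.550 CPM in the KO-labelled testes, against 0.691, 0.847 and 0.477 CPM in the WT testes. For these 3 genes too the groups overlapped, and none passed the test.

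*Ifit2*, *Bst2*, *Xaf1* and *Parp14* lay higher, and a single library set the picture for the first pair. *Ifit2* had 8.36, 3.69 and 3.96 CPM in the KO-labelled testes, against 3.89, 4.49 and 4.47 CPM in the WT testes. KO replicate 1 of *Ifit2* stood apart from the 5 other libraries, and without it the log2 fold change of 0.31 turned to -0.16. *Bst2*, which encodes tetherin, had 19.5, 19.4 and 8.98 CPM in the KO-labelled testes, against 11.8, 11.2 and 10.6 CPM in the WT testes. KO replicates 1 and 2 lay above all WT testes and KO replicate 3 below them, so the log2 fold change of 0.51 did not pass the test (adjusted p = 0.153, edgeR). Without KO replicate 3 it was 0.81 (adjusted p = 0.000115), and DESeq2 on all libraries gave an adjusted p of 0.0496. *Xaf1*, which promotes apoptosis, had 6.22, 4.81 and 4.74 CPM in the KO-labelled testes, against 6.36, 7.36 and 4.95 CPM in the WT testes. *Parp14*, an ADP-ribosyltransferase, had 9.43, 11.5 and 12.4 CPM in the KO-labelled testes, against 9.59, 10.2 and 9.97 CPM in the WT testes. The groups of both genes overlapped.

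**Figure D3:**
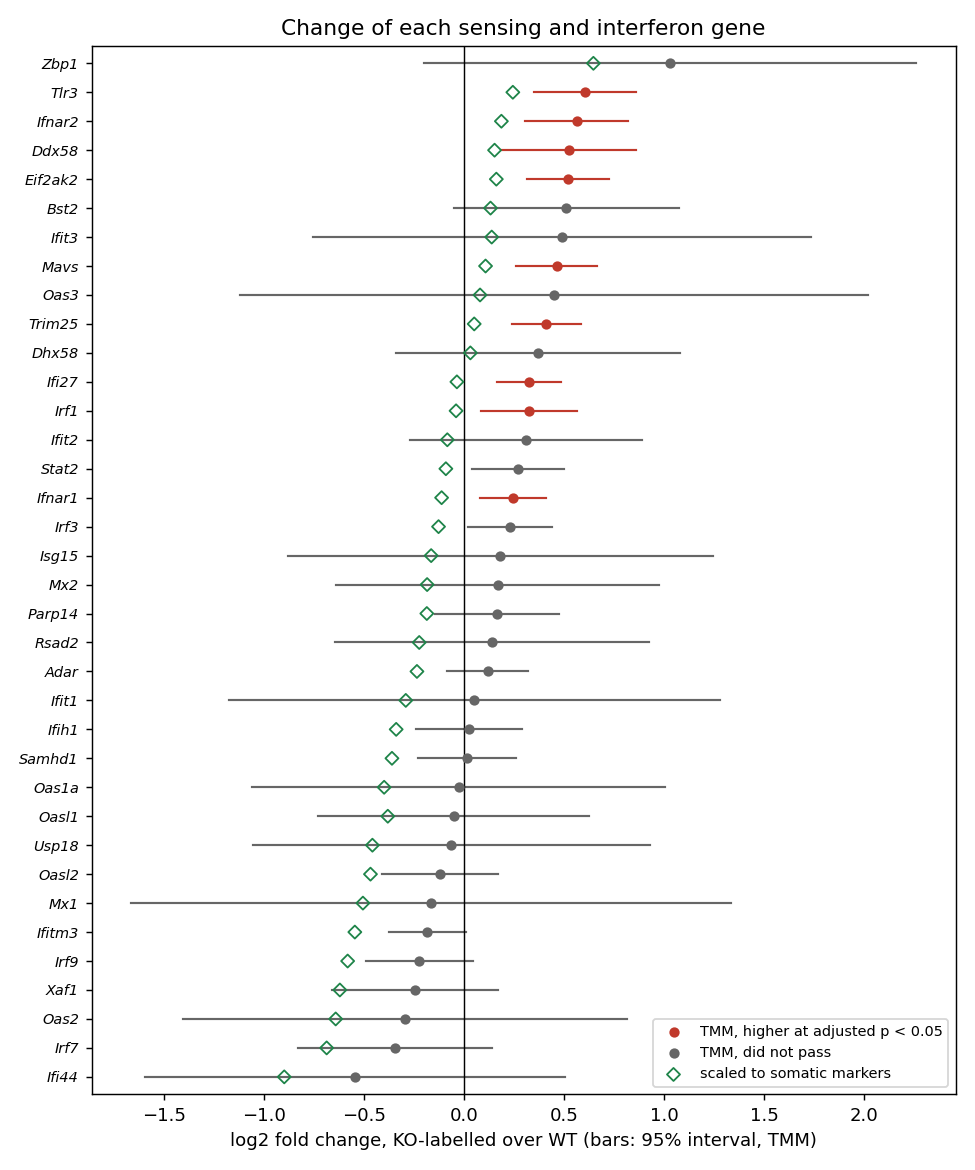
Log2 fold changes of the 36 members, KO-labelled over WT, with 95% intervals (bars) from the edgeR fit on the x axis and the genes ordered by change on the y axis. Open diamonds give the value with somatic marker scaling, which lies to the left for every gene, and the 9 members that rose lie between 0.25 (*Ifnar1*) and 0.61 (*Tlr3*) with short intervals under TMM, while those of *Oas3*, *Mx1*, *Ifit1* and *Isg15* are wide and cross 0.

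The interferon genes gave almost no reads. None of the 10 listed interferon genes passed the filter on low counts. *Ifng* had 5, 3 and 2 counts in the KO-labelled testes, against 3, 3 and 4 counts in the WT testes. *Ifnb1*, the first type I interferon made after sensing, had 0 counts in the KO-labelled testes, against 2, 4 and 0 counts in the WT testes. *Ifna1* had 3 counts in 1 KO-labelled library and *Ifnl2* had 5 counts in 1 KO-labelled library, with 0 in all WT testes. *Ifna2* had 5 counts and *Ifnk* 3 counts, each in 1 WT library, with 0 in all KO-labelled testes. *Ifna4*, *Ifne*, *Ifnl3* and *Ifnz* had 0 counts in all 6 libraries. A count of 0 allows up to 3 counts, or 0.0681 to 0.0864 CPM per library. Near-identical interferon genes may also lose reads that map to several places, which the counting left out. *Ifng* had a few counts in every library, and no steady level of the other listed interferon genes was detectable at this depth in either group.

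Other genes of the pathway were counted in the same way. Of 104 such genes 89 were tested, and 35 (39.3%) rose and 5 fell, where 16.4% of all genes tested rose and 16.7% fell. The median log2 fold change of the 89 was 0.29, beside -0.02 over all genes tested. Of the 44 with a mean of at least 10 CPM, 22 rose and 5 fell, where 27.2% of all genes at that level rose and 20.4% fell. The count of rises fell to 22 of 89 without WT replicate 1 and to 3 with somatic marker scaling, where 15 fell. These lists were drawn up with results of these libraries known, and they carry no test of their own. Each count below is to be read beside the shares over all genes given here.

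Further adaptors, kinases and ligases of sensing had 10 rises and 1 fall among 21 genes. *Ticam1*, which encodes TRIF, the adaptor of TLR3, had 38.3, 35.6 and 37.6 CPM in the KO-labelled testes, against 22.8, 26.7 and 23.2 CPM in the WT testes (log2 fold change 0.62, adjusted p = 0.00016, edgeR). The groups of *Ticam1* did not overlap, and neither did those of *Tlr3*, where 21.7% of all genes lay wholly above WT. With somatic marker scaling neither gene was called. The log2 fold changes were then 0.25 for *Ticam1* (adjusted p = 0.142, edgeR) and 0.24 for *Tlr3* (adjusted p = 0.209, edgeR). A link between the 2 changes was not tested. *Ripk1*, a kinase downstream of TRIF, and *Prkra*, whose product activates PKR, rose with log2 fold changes of 0.44 (adjusted p = 0.000485) and 0.51 (adjusted p = 0.000929). With somatic marker scaling *Ripk1* and *Prkra* had log2 fold changes of 0.07 and 0.15 and were not called. The fall was that of *Tbk1*, the kinase that phosphorylates IRF3, with 46.6, 46.3 and 49.7 CPM in the KO-labelled testes, against 63.8, 61.7 and 56.4 CPM in the WT testes (log2 fold change -0.35, adjusted p = 0.00478, edgeR). *Tbk1* also fell with somatic marker scaling (log2 fold change -0.71).

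Other receptor and JAK-STAT genes had 7 rises and 0 falls among 13. *Ifngr2*, a chain of the interferon gamma receptor, had 273, 270 and 261 CPM in the KO-labelled testes, against 175, 167 and 176 CPM in the WT testes (log2 fold change 0.63, adjusted p = 5.11e-06, edgeR). The groups of *Ifngr2* stood clear of each other. *Irf2*, a repressor of interferon-stimulated genes, rose with a log2 fold change of 0.48 (adjusted p = 0.00177, edgeR). With somatic marker scaling *Ifngr2* and *Irf2* kept a positive sign and were not called.

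Of 45 other interferon-stimulated genes tested, 17 rose and 1 fell. *Slfn5*, *Rnf213* and *Shisa5* had the smallest adjusted p among the rises, at log2 fold changes of 0.61 (adjusted p = 0.000188), 0.51 (adjusted p = 0.000207) and 0.45 (adjusted p = 0.000751). With somatic marker scaling their log2 fold changes were 0.25, 0.16 and 0.08, and they were not called. *Rnf213* encodes a giant ubiquitin ligase and had 371, 450 and 456 CPM in the KO-labelled testes, against 304, 301 and 291 CPM in the WT testes. The fall was that of *Parp12*, an ADP-ribosyltransferase, with 34.3, 38.5 and 39.7 CPM in the KO-labelled testes, against 87.0, 97.9 and 95.5 CPM in the WT testes. The groups were far apart, at a log2 fold change of -1.32 (adjusted p = 1.61e-08, edgeR), which was -1.67 with somatic marker scaling. The rises here ran beside the marker changes given below.

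A list of nucleases, helicases and related genes, drawn up around limits on sensing of a cell's own RNA and DNA, had 1 rise and 3 falls among 10 genes tested. *Adarb1*, the second adenosine deaminase of RNA, had 12.8, 16.8 and 16.3 CPM in the KO-labelled testes, against 32.8, 36.1 and 39.7 CPM in the WT testes (log2 fold change -1.24, adjusted p = 1.11e-06, edgeR). It is neither a nuclease nor a helicase, and its fall is not a measure of such a limit. The related member *Adar* did not pass the test (log2 fold change 0.12, adjusted p = 0.373, edgeR). *Rnaseh2b*, a subunit of RNase H2, which removes ribonucleotides from DNA, fell with a log2 fold change of -0.66 (adjusted p = 0.000111, edgeR). The falls of *Adarb1* and *Rnaseh2b* also held with somatic marker scaling. *Ttc37*, a subunit of the cytoplasmic SKI complex, rose with a log2 fold change of 0.27 (adjusted p = 0.0286, edgeR), which turned to -0.09 with somatic marker scaling. Its call was lost without KO replicate 2 (adjusted p = 0.119) or without WT replicate 1 (adjusted p = 0.110). *Trex1* had 0 counts in all libraries, and 100% of its exon bases lie on exons of *Atrip* on the same strand, where the counting dropped reads.

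**Figure D4:**
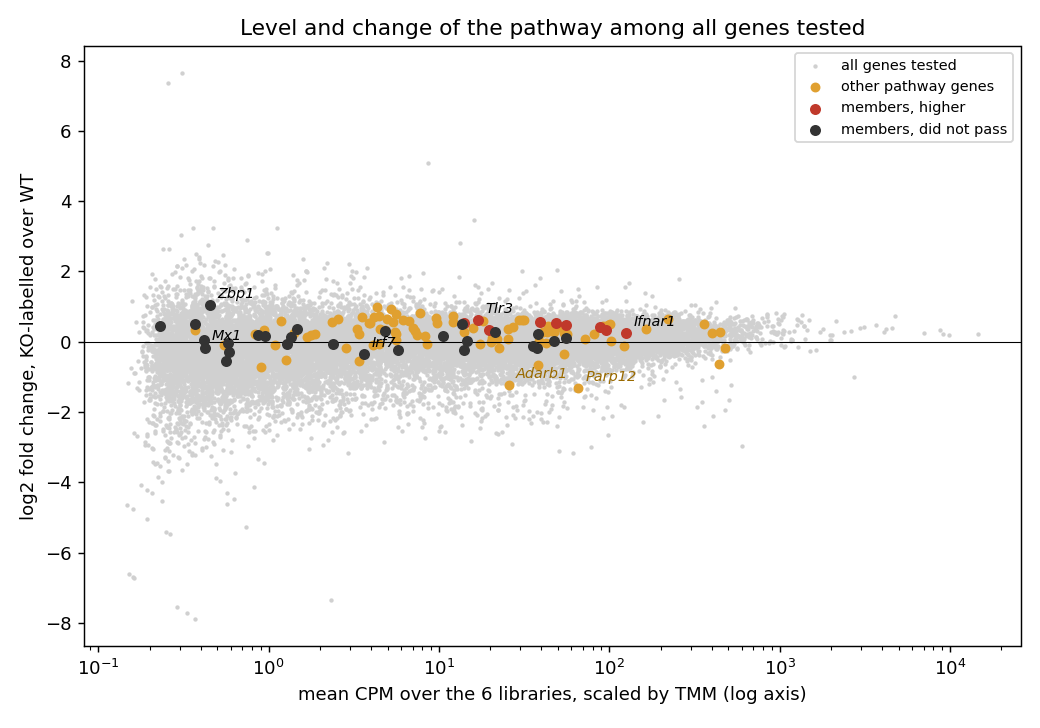
Log2 fold change, KO-labelled over WT, against mean CPM over the 6 libraries on a log axis, for all 20327 genes tested (grey), the other pathway genes (orange), the members that rose (red) and the members that did not pass the test (black). The members that rose sit at 10 CPM or more within the cloud of all genes, and the falls of *Parp12* and *Adarb1* lie further from 0 than any member at that level.

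Markers of several testis cell types differed between the groups beside these genes. Each count of markers is to be read beside the shares over all genes tested, of which 16.4% rose and 16.7% fell. At a mean of 10 CPM or more these shares were 27.2% and 20.4%. Markers of differentiating and meiotic germ cells, which included *Stra8*, *Sycp3* and *Dmc1*, fell for 11 of 12 genes, and their summed level was 585 to 766 CPM in the KO-labelled and 1885 to 2267 CPM in the WT testes. In RNA of a whole testis, fewer cells of a type and less RNA per cell cannot be told apart. Sertoli cell markers rose for 10 of 10 genes, with summed levels of 11469 to 12200 CPM in the KO-labelled and 7291 to 7593 CPM in the WT testes. Of the macrophage markers, 6 of 14 rose and 0 fell, among them *Cx3cr1*, *Fcer1g* and *Csf1r*, with summed levels of 362, 265 and 259 CPM in the KO-labelled testes, against 220, 190 and 201 CPM in the WT testes. Leydig cell markers rose for 3 of 7 (571 to 613 CPM in the KO-labelled and 394 to 440 CPM in the WT testes), and undifferentiated spermatogonial markers for 4 of 10 (315 to 406 CPM in the KO-labelled and 286 to 301 CPM in the WT testes).

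Endothelial markers rose for 2 of 9 genes (413 to 464 CPM in the KO-labelled and 323 to 365 CPM in the WT testes). Their median log2 fold change was 0.11, with 5 positive and 4 negative, so the higher sum does not hold for the list as a whole. Stromal markers rose for 3 of 7 (4885 to 7534 CPM in the KO-labelled and 4146 to 5368 CPM in the WT testes). Peritubular myoid markers had 1 rise and 2 falls among 7 (1140 to 1201 CPM in the KO-labelled and 1324 to 1333 CPM in the WT testes). Lymphocyte markers had neither a rise nor a fall among the 4 of 8 that were tested, with summed levels of 7.26 to 9.82 CPM in the KO-labelled and 9.15 to 12.6 CPM in the WT testes. KO replicate 1 held the highest macrophage, stromal, Leydig and endothelial sums, and also the highest *Ifit2*. Of the members that rose, *Ifnar2*, *Ddx58*, *Irf1* and *Ifi27* were highest in KO replicate 1. *Mavs*, *Trim25*, *Eif2ak2* and *Ifnar1* were highest in KO replicate 3, and *Tlr3* in KO replicate 2. The summed level of the 36 members was 918, 862 and 895 CPM in the KO-labelled testes, against 741, 752 and 745 CPM in the WT testes. Somatic marker scaling was set by the Sertoli, Leydig, macrophage, endothelial, stromal and peritubular myoid markers together. Their average change under it was thus fixed near 0 in advance, and their counts show only how these lists differ. With somatic marker scaling, rises were called for 6 of 10 Sertoli, 2 of 7 Leydig, 1 of 14 macrophage, 1 of 10 undifferentiated spermatogonial, 0 of 9 endothelial, 0 of 7 stromal and 0 of 7 peritubular myoid markers. Falls were then called for 3 endothelial, 5 peritubular myoid and 1 lymphocyte marker, and for 12 of 12 markers of differentiating and meiotic germ cells. The part that these cell types have in the values of the members was not tested.

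**Figure D5:**
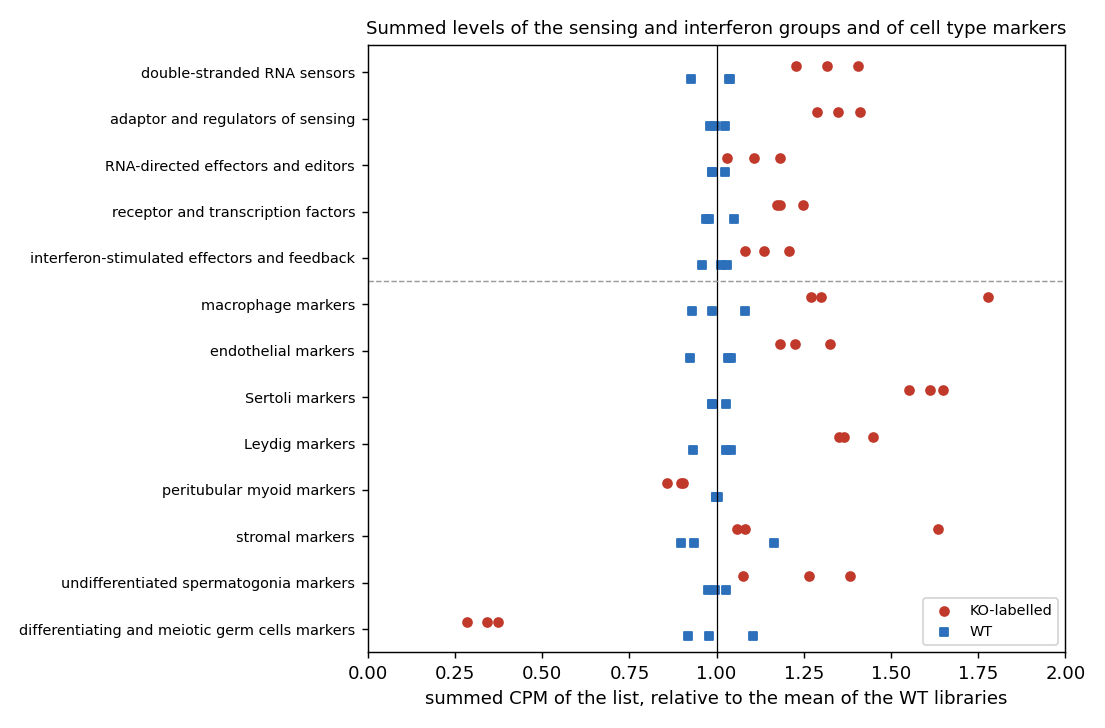
Summed CPM of the members by role (above the dashed line) and of the cell type markers (below it) in each library, divided by the mean of the 3 WT libraries, on a linear axis. The 3 KO-labelled testes lie above the 3 WT testes for all 5 roles, though only just for the RNA-directed effectors and editors. They also lie above them for Sertoli, Leydig, endothelial, macrophage and undifferentiated spermatogonial markers. They lie below them for peritubular myoid markers, and far below them for markers of differentiating and meiotic germ cells.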

How the data were processed

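Per the labels and the study's methods, the authors used cutadapt for trimming, HISAT2 for alignment of the single-end reads to GRCm38.p5 and featureCounts 1.6.4 with GENCODE M18 for counting. Counting used 1 strand and dropped reads that map to several places or to several genes. The deposited values are raw counts, and 0 columns of library values were left unused. Gene names came from GENCODE M21.

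The test was the quasi-likelihood test of edgeR 4.0.16 with TMM factors, filterByExpr and a robust fit (R 4.3.3), run over 20327 genes with Benjamini-Hochberg adjustment and a threshold of 0.05. It was also run on simulated data with 200 of 19792 genes changed, far fewer than were called here. There edgeR found 42.9% of 1.5-fold and 66.7% of 2-fold changes, and 5.3% of its calls were false. A change of such size in a member can therefore be missed. CPM are scaled by TMM. RPKM use the deposited gene length. The p-values measure the spread between 3 numbered libraries per group. The members and lists were chosen with earlier results of these data known. All members are named. From each other pathway list, at most 3 genes per direction with the smallest adjusted p are named, together with the interferon genes and *Trex1*, which was added after its values were seen. Some genes of these lists are counted but not reported here.

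Alternatives were RLE and upper-quartile factors, scaling to somatic cell markers, DESeq2 1.42.0, limma-voom (limma 3.58.1), no filter, at least 10 counts in every library, fits that leave out 1 library each, and a block for the replicate number. Promoter windows came from RefSeq (GRCm38.p6).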

Additional observations from a re-analysis of the deposited data

How the results depend on the processing

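With RLE or upper-quartile factors, limma-voom, a minimum of 10 counts in every library or the replicate number as a block, 9 members rose and 0 fell, DESeq2 gave 11 rises (*Stat2* and *Bst2* added) and no filter on low counts gave 10 (*Bst2* added). Same-numbered libraries did not deviate together (correlations across genes -0.0014, -0.0126 and 0.0139), and the block gave 35 rises and 5 falls among the other pathway genes and 3383 and 3403 over all genes. Somatic marker scaling gave 0 rises and 6 falls among the members (*Samhd1*, *Oasl2*, *Irf7*, *Irf9*, *Ifitm3* and *Xaf1*), 3 and 15 among the other pathway genes, and 559 and 7559 over all genes. Leaving out each library gave 7 to 9 rises and 0 to 1 falls among the members and 22 to 37 rises among the other pathway genes, with the lowest count without WT replicate 1. The calls of *Tlr3*, *Mavs*, *Trim25*, *Eif2ak2*, *Ifnar2* and *Ifi27* changed only under somatic marker scaling.

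The log2 fold change of some members turned sign under several settings. Somatic marker scaling, which lowered the median of all genes, gave -0.34 for *Ifih1*, -0.24 for *Adar*, -0.36 for *Samhd1*, -0.11 for *Ifnar1*, -0.091 for *Stat2*, -0.040 for *Irf1*, -0.13 for *Irf3*, -0.16 for *Isg15*, -0.29 for *Ifit1*, -0.084 for *Ifit2*, -0.036 for *Ifi27*, -0.22 for *Rsad2*, -0.18 for *Mx2* and -0.19 for *Parp14*. limma-voom gave -0.0065 for *Samhd1*, 0.054 for *Usp18* and 0.10 for *Mx1*, a minimum of 10 counts -0.0089 for *Samhd1*, and the replicate block -0.0038 for *Samhd1* and 0.024 for *Usp18*. The cause was not tested. Leaving out 1 library gave -0.030 to 0.13 for *Ifih1*, -0.13 to 0.15 for *Samhd1*, -0.29 to 0.14 for *Oas1a*, -0.56 to 0.24 for *Oas2*, -0.45 to 0.27 for *Oasl1*, -0.35 to 0.60 for *Isg15*, -0.40 to 0.69 for *Usp18*, -0.22 to 0.53 for *Ifit1*, -0.16 to 0.53 for *Ifit2*, -0.10 to 0.59 for *Rsad2* and -0.87 to 0.21 for *Mx1*. *Zbp1*, *Oas3*, *Ifit1*, *Ifit3* and *Mx1* could not be fitted with the minimum of 10 counts. Of the 10 most abundant members by RPKM, 9 were also among the 10 highest by CPM. An ISRE with a spacer of 1 base in place of 2 occurred in 25% of the 28 members with a window, compared with 3.70% of 27025 genes. Depth limits the members below 1 CPM most, where counting error alone is wide.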
